A study of Drosophila melanogaster with 24 samples.

Results

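The comparison of AD with WT heads on day 30 post eclosion rests on 6 of the 24 RNA-seq libraries of a *Drosophila melanogaster* time course, chosen by their labels as the 3 AD and the 3 WT libraries of the last age sampled. The other 18 libraries cover the same genotypes at days 3, 10 and 20, with 3 libraries in each of the 8 groups. All flies were males, and each library came from the mRNA of a separate pool of heads. The WT flies were *w1118* crossed to the pan-neuronal driver *elav-GAL4 c155*, and the AD flies carried that driver over *UAS-Aβ42* in the same *w1118* background, so every fly had the driver and only AD flies had the transgene. The sample labels call the AD genotype an hAPP transgenic, whereas the methods describe the Aβ42 peptide alone. The level of the transgene itself was not analysed here.

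The GAL4 line drives the transgene in neurons, while a head pool also holds eyes, antennae, fat body, glia, muscle and blood cells, so a change can lie in any of these tissues. In bulk RNA, fewer cells of a type and less RNA per cell cannot be told apart. Nothing states whether the 3 pools of a group came from separate crosses, so the p-values measure the spread between pools.

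Aβ42 is the peptide of amyloid plaques, and in flies a neuronal Aβ42 transgene shortens life and impairs memory. Misfolded proteins in the endoplasmic reticulum activate the unfolded protein response, which raises the Hsp70 family chaperone BiP (*Hsc70-3* in flies) and the Hsp90 family chaperone *Gp93*, and misfolded proteins in the cytosol activate the heat shock response. Electrical signalling in fly neurons depends on voltage-gated channels such as the sodium channel *para* and the potassium channel *Sh*, and excitation in the fly brain runs mainly through acetylcholine.

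The 6 libraries held 13880710 to 16237611 expected counts each, and 12571 annotated genes were listed in at least 1 of them. Levels are given as TMM-scaled CPM, computed over these 6 libraries. A gene is said to rise or fall where edgeR's quasi-likelihood test gave an adjusted p (FDR) under 0.05 and a log2-fold change above 1 or below -1, AD relative to WT.

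The library labelled AD day 30 replicate 3 stood apart from the other AD libraries in genes that differed between the genotypes at the earlier ages. The eye pigment transporter gene *w* (X:2790599-2796466, release 6 coordinates), whose mini form marks most fly transgenes, measured 85.91, 87.63 and 92.76 CPM in WT, 189.1 and 193.3 CPM in AD replicates 1 and 2, and 93.13 CPM in the library labelled AD day 30 replicate 3. *Cyp6a2*, a detoxification P450 gene (2R:6779749-6781491), measured 2.001, 3.07 and 2.382 CPM in WT, 42.69 and 34.87 CPM in AD replicates 1 and 2, and 3.132 CPM in that library. In both genes 2 AD libraries lay far above WT and the third lay just above the highest WT library. A set of 26 genes was higher in AD heads on average over days 3, 10 and 20, not necessarily at each of these ages. Their median difference from the WT day 30 mean was 1.999 and 1.743 in AD replicates 1 and 2, on the log2(CPM + 0.5) scale. It was 0.31 in the library labelled AD day 30 replicate 3. Across genes, which are not independent replicates, that library's log2 levels correlated at 0.984, 0.978 and 0.977 with WT replicates 1, 2 and 3. They correlated at 0.973 and 0.975 with AD replicates 1 and 2, which correlated with each other at 0.988. AD replicates 1 and 2 correlated at 0.974 to 0.978 with the WT libraries, a range that only the value with WT replicate 1 exceeded. Counts over all genes are therefore given with the library as labelled and without it, and list counts are from the fit without it unless both are given. *w* and *Cyp6a2* were the genes by which the library was set aside, so their levels are a description and no test is given for them. Both are among the 26 genes above and stay in the counts of genes that rose without that library.

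**Figure D1:**
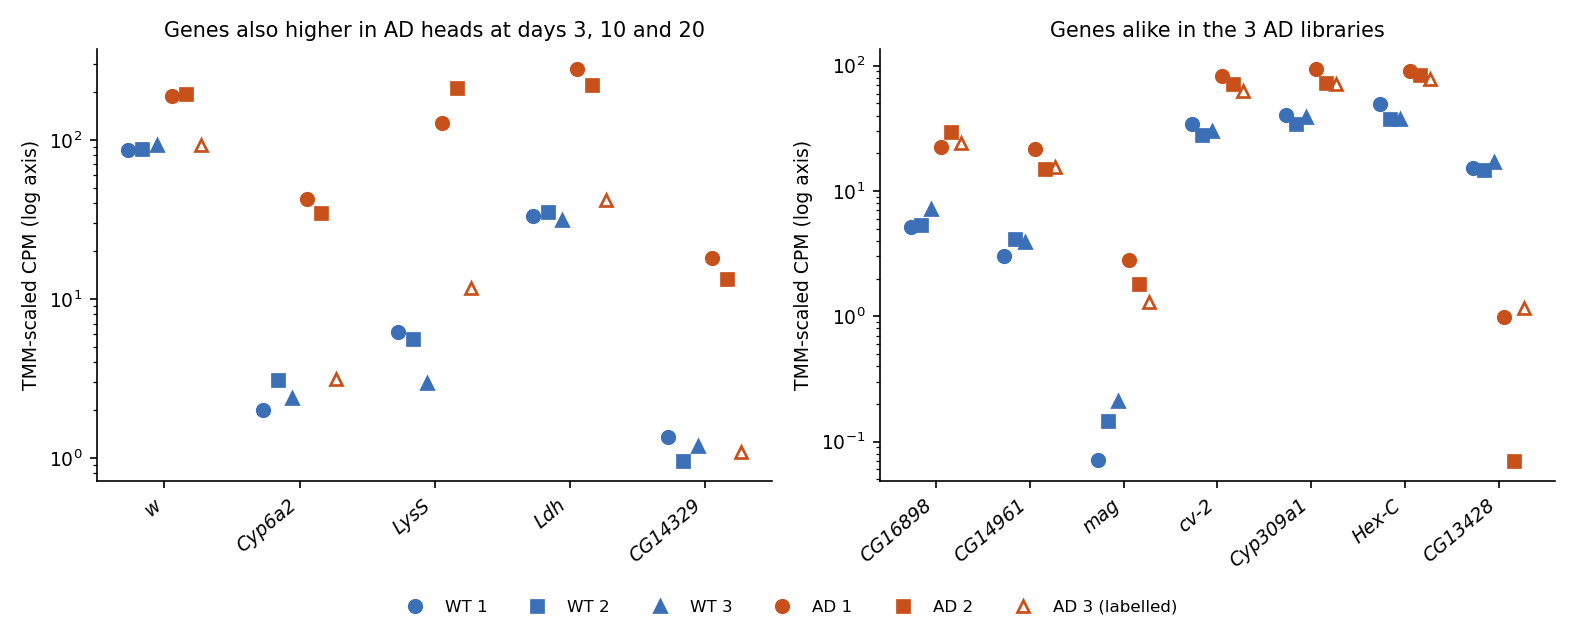
TMM-scaled CPM (log axis) of 12 genes in each of the 6 day 30 libraries, with WT in blue, AD in orange and AD replicate 3 as an open symbol. In the left panel AD replicate 3 lies beside WT (*w*, 93.13 CPM against 85.91 to 92.76), and in the right panel it lies beside the other AD libraries (*CG16898*, 24.03 CPM against 22.56 and 29.6).

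With the 6 libraries as labelled, 38 of 9745 tested genes rose (0.39% of those tested) and 15 fell (0.154%). Without AD replicate 3, 119 of 9885 tested genes rose (1.2%) and 60 fell (0.607%), and 34 of the rises and 14 of the falls were in both fits. The biological coefficient of variation was 0.148 with that library and 0.107 without it. At the FDR alone, 225 genes were higher and 209 lower over the 6 libraries, against 697 higher and 898 lower without AD replicate 3. The count over 6 libraries rested on single libraries: it was 0 without WT replicate 2, 1 without WT replicate 3, 35 without WT replicate 1, 12 without AD replicate 1 and 22 without AD replicate 2. Of the 29 genes named here that passed over 6 libraries, all 29 missed the FDR without WT replicate 2 and 28 without WT replicate 3, although their directions held. The 179 calls without AD replicate 3 ranged from 142 to 191 when one more library was left out, and fell to 14 in a fit of all 24 libraries as 8 groups, whose shared spread includes the earlier ages.

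The genes called without AD replicate 3 did not move as one set in that library. Of the 119 that rose, 65 (54.6%) were above every WT library in AD replicate 3, 31 were within the WT range and 23 were below every WT library. Of the 60 that fell, 40 (66.7%) were below every WT library in AD replicate 3, 7 were within the range and 13 were above it. Over all genes tested with 6 libraries, 1271 (13%) had every AD library above every WT library and 1178 (12.1%) had every AD library below. These shares ask for all 3 AD libraries beyond WT, so they are no baseline for the shares of AD replicate 3 alone. The placing of AD replicate 3 alone was not counted over all genes.

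A first group of genes moved alike in all 3 AD libraries. *CG16898* (2R:20003620-20005003) measured 5.146, 5.335 and 7.216 CPM in WT and 22.56, 29.6 and 24.03 CPM in AD, and *CG14961* (3L:3330063-3333181) measured 3.002, 4.166 and 3.923 CPM in WT and 21.69, 15.11 and 15.45 CPM in AD. The groups did not overlap in either gene. The log2-fold change over 6 libraries was 2.10 (SE 0.18, FDR = 0.007695) for *CG16898* and 2.24 (SE 0.21, FDR = 0.00989) for *CG14961*, and neither gene's product is described in the sources used here.

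Some of the rises shared by the 3 AD libraries were in metabolic genes. *Hex-C*, a hexokinase gene, measured 49.74, 37.42 and 37.48 CPM in WT and 90.03, 84.64 and 78.09 CPM in AD, a log2-fold change of 1.02 (SE 0.13, FDR = 0.01544). *CG11089*, the fly counterpart of the purine synthesis enzyme ATIC, measured 203.8, 168.8 and 157.1 CPM in WT and 436.9, 297.2 and 328.2 CPM in AD, a log2-fold change of 1.004 (SE 0.16, FDR = 0.01657). The AD and WT libraries were separate in both genes. *Gart*, which encodes the enzyme of other steps of purine synthesis and was picked out after its values were seen, measured 161.5, 142.7 and 161.6 CPM in WT and 441.1, 244.8 and 257.5 CPM in AD, with a log2-fold change of 1.02 (FDR = 0.0328). *Pfas*, a further purine synthesis gene picked in the same way, measured 102.5, 69.94 and 83.3 CPM in WT and 212.4, 154.1 and 133 CPM in AD. It stayed just under the fold limit over 6 libraries at 0.97 (FDR = 0.02938) and passed it without AD replicate 3 at 1.10 (FDR = 0.001301). All 3 purine synthesis genes passed without AD replicate 3, but none did once AD replicate 1 was left out as well (0.74 for *CG11089*, 0.65 for *Gart* and 0.84 for *Pfas*).

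*mag*, a lipase gene, measured 0.07147, 0.1462 and 0.2102 CPM in WT and 2.788, 1.802 and 1.294 CPM in AD, and rose by a log2-fold change of 3.70 (SE 0.61, FDR = 0.01935). *cv-2*, a secreted modulator of BMP signalling, measured 34.23, 27.77 and 30.05 CPM in WT and 82.1, 71.19 and 63.04 CPM in AD, a log2-fold change of 1.23 (SE 0.13, FDR = 0.01061). The P450 gene *Cyp309a1* measured 40.45, 34.28 and 38.88 CPM in WT and 94.37, 72.44 and 71.69 CPM in AD, a log2-fold change of 1.07 (SE 0.13, FDR = 0.01544). In these 3 genes, as in *Hex-C*, AD replicate 3 lay closer on the log2 scale to the other AD libraries than to any WT library. *Nepl14*, of the neprilysin-like gene family, measured 15.08, 13.89 and 13.17 CPM in WT and 28.07, 26.62 and 31.32 CPM in AD, with a log2-fold change of 1.03 over 6 libraries and 0.96 without AD replicate 3, just under the limit. *Cyp309a1* was at 1.14 without AD replicate 3 and at 0.93 without AD replicates 1 and 3.

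Among the genes that fell in all 3 AD libraries, the steepest were short genes at low level. *CG13428* (2R:20539512-20540448) measured 15.29, 14.76 and 17.16 CPM in WT and 0.9914, 0.06932 and 1.157 CPM in AD, a log2-fold change of -4.38 (SE 0.47, FDR = 0.01192). *CheA75a*, of the CheA family of chemosensory proteins, measured 1.715, 1.973 and 2.592 CPM in WT and had no count in the 3 AD libraries, which makes it at least 10.1-fold lower with a floor of 3 counts in each library. *CheB38b*, of the related CheB family and picked out after its values were seen, measured 2.001, 1.096 and 2.102 CPM in WT and 0, 0 and 0.3404 CPM in AD (FDR = 0.04857 over 6 libraries). At the earlier ages *CG13428* and *CheA75a* did not pass the test between genotypes (log2-fold change -0.33, FDR = 0.9117, and 0.03, FDR = 0.9955). *CG13428* also spread widely within a genotype there, as the plot of levels by age shows. So did *CheA75a*, at 0.1211, 1.32 and 6.204 CPM in WT at day 10 on a scale over 24 libraries. In the other direction *Elo68alpha*, a fatty acid elongase gene with no count in WT, measured 6.63, 3.327 and 0.1362 CPM in AD, so that AD replicate 3 was under the floor.

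Other rises, already present on average over the earlier ages, were small in AD replicate 3. *Ldh*, lactate dehydrogenase, measured 33.23, 35.23 and 31.25 CPM in WT, 279.3 and 221.8 CPM in AD replicates 1 and 2, and 41.66 CPM in AD replicate 3. *LysS*, a digestive lysozyme gene, measured 6.146, 5.628 and 2.942 CPM in WT, 128.5 and 213 CPM in AD replicates 1 and 2, and 11.78 CPM in AD replicate 3. AD replicate 3 was above every WT library in both genes but far below its own group. Without AD replicate 3 the log2-fold change was 2.91 for *Ldh* (SE 0.11, FDR = 5.129e-07) and 5.12 for *LysS* (SE 0.26, FDR = 2.823e-06), and with it 2.45 (FDR = 0.04158) and 4.59 (FDR = 0.02938). *LysS* belongs to a cluster of similar lysozyme genes, between which reads may have been divided.

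Chaperones of the endoplasmic reticulum rose in AD replicates 1 and 2 and were nearer to WT in AD replicate 3. BiP (*Hsc70-3*) measured 338.6, 311.8 and 329.3 CPM in WT, 1174 and 1101 CPM in AD replicates 1 and 2, and 462.3 CPM in AD replicate 3. *Gp93* measured 187.5, 196.1 and 196.6 CPM in WT, 569.6 and 527.9 CPM in AD replicates 1 and 2, and 296.5 CPM in AD replicate 3. Both genes were above every WT library in all 3 AD libraries, and AD replicates 1 and 2 were 3.48-fold and 2.83-fold above WT. The log2-fold change without AD replicate 3 was 1.80 for *Hsc70-3* (SE 0.08, FDR = 9.908e-07) and 1.503 for *Gp93* (SE 0.07, FDR = 2.744e-06), and with it 1.48 (FDR = 0.02939) and 1.27 (FDR = 0.02016).

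The protein disulfide isomerase gene *CaBP1* measured 104.1, 105.8 and 90.51 CPM in WT and 188.7, 190.1 and 131.1 CPM in AD, and stayed under the fold limit at 0.92 without AD replicate 3 (FDR = 0.0001066). *scf*, a calcium-binding protein of the same compartment, rose from 83.48, 89.09 and 75.87 CPM in WT to 228.4, 211.3 and 106.5 CPM in AD. Among the 19 genes of the fixed endoplasmic reticulum stress list, 3 rose (*Hsc70-3*, *Gp93* and *Sil1*) and none fell without AD replicate 3, 2 rose over 6 libraries, 12 were higher and 1 lower at the FDR alone without AD replicate 3, and the median log2-fold change was 0.40 beside 0.01 over all tested genes. Of all 9885 genes tested without AD replicate 3, 119 rose, and 697 were higher and 898 lower at the FDR alone. *Manf*, a secreted protein of the unfolded protein response that was picked out after its values were seen, measured 41.31, 47.36 and 45.19 CPM in WT and 98.46, 96.7 and 55.48 CPM in AD. *Sil1*, a nucleotide exchange factor of BiP, and *Ero1L*, the oxidase of disulfide bond formation, were picked in the same way and rose without AD replicate 3 by log2-fold changes of 1.14 (FDR = 0.0001513) and 1.004 (FDR = 0.0001788), *Ero1L* being under the limit at 0.92 once AD replicate 1 was left out too.

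Cytosolic heat shock genes showed the same order of libraries with more spread, apart from *Hsp23*, which was within the WT range in AD replicate 3. The summed level of the 6 near-identical *Hsp70* genes, between which reads cannot be assigned reliably, was 74.61, 71.77 and 84.07 CPM in WT and 740.7, 426.3 and 176.4 CPM in AD, so that AD replicate 3 lay above WT and below the other AD libraries. The small heat shock protein gene *Hsp26* measured 10.65, 13.23 and 11.07 CPM in WT and 81.11, 58.92 and 18.04 CPM in AD, a log2-fold change of 2.59 without AD replicate 3 (SE 0.15, FDR = 1.139e-05). *Hsp27* measured 7.433, 8.989 and 6.725 CPM in WT and 24.41, 18.23 and 9.94 CPM in AD, and *Hsp23* 24.37, 31.43 and 22.35 CPM in WT and 65.68, 46.93 and 27.16 CPM in AD. Of the 7 small heat shock protein genes tested, 3 rose, all 7 were above 0 and the median log2-fold change was 0.60 without AD replicate 3. The list's median difference from the WT mean was 0.66 and 0.66 in AD replicates 1 and 2 and 0.07 in AD replicate 3, and over 6 libraries 1 member rose, *Hsp26*. *Hsp23* lost its call once AD replicate 1 was left out too, at 0.84. Of the 17 genes in the list of *Hsp70*, *Hsp90* and their cochaperones, 6 rose and none fell, with a median of 0.26, and 4 rose over 6 libraries. Of the 6 rises 5 were near-identical *Hsp70* copies, and the other was *Hsp68*, an inducible relative, at 1.78 (FDR = 0.0002929).

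**Figure D2:**
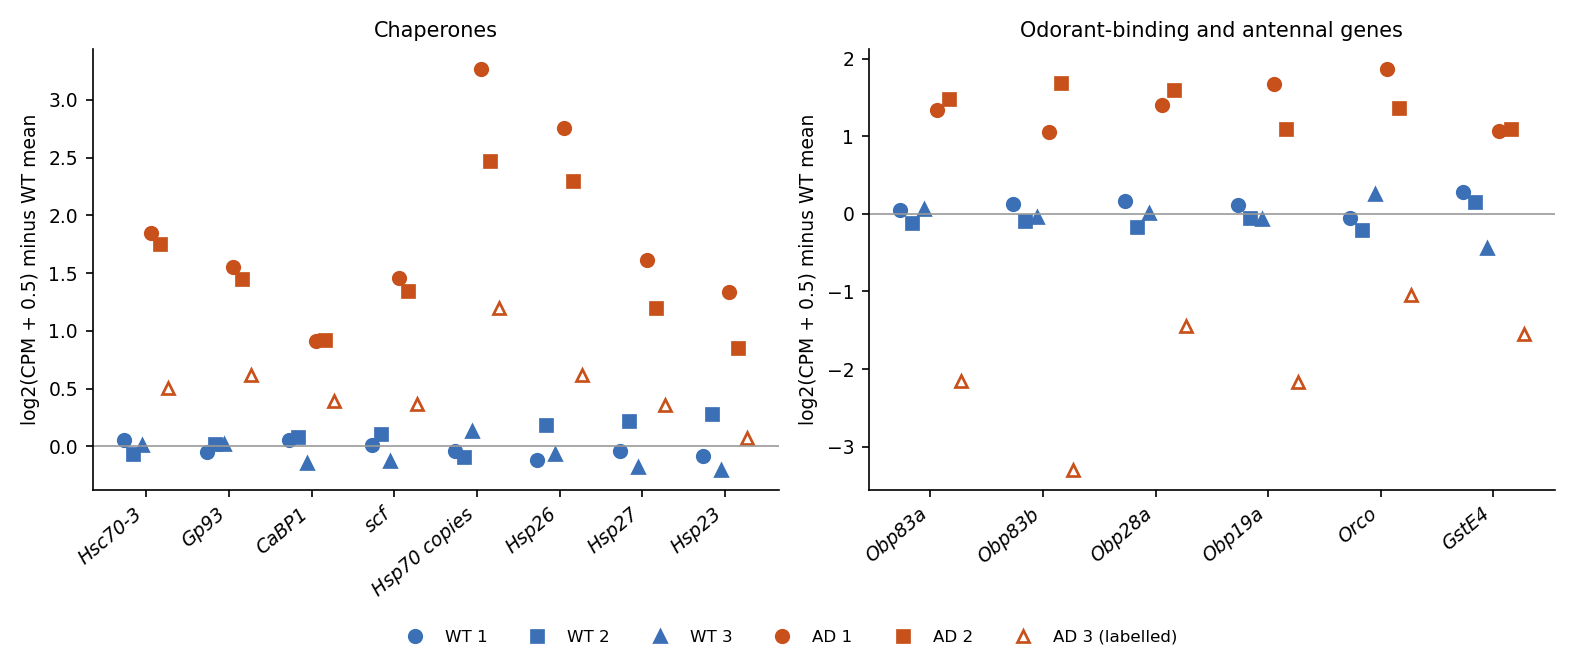
Level of chaperone genes (left) and of odorant-binding genes, *Orco* and *GstE4* (right) in each day 30 library, as log2(CPM + 0.5) minus the WT mean. *GstE4* is a glutathione S-transferase gene, and nothing here places it in the antenna, despite the panel title. AD replicate 3 (open symbols) lies between WT and the other AD libraries for the chaperones (*Hsc70-3*, 462.3 CPM) except *Hsp23*. There it lies within the WT range (27.16 CPM against 22.35 to 31.43). For the genes drawn on the right it lies below every WT library (*Obp83a*, 3.268 CPM against 14.98 to 17.02).

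Several genes of xenobiotic metabolism rose. Over all 9885 genes tested without AD replicate 3, 119 rose and 60 fell, and 697 were higher and 898 lower at the FDR alone. Of the 73 cytochrome P450 genes tested, 8 rose and 1 fell without AD replicate 3. At the FDR alone 20 of the 73 were higher and 2 lower, and the median log2-fold change was 0.32. *Cyp6a2*, by which that library was set aside, is among the 8, and among the 4 that rose over 6 libraries. The median difference from the WT mean was 0.31 and 0.26 in AD replicates 1 and 2 and 0.24 in AD replicate 3, so the group median of that library lay with its label although *Cyp6a2* did not. *GstD2*, a glutathione S-transferase gene, measured 3.931, 5.92 and 6.515 CPM in WT and 16.73, 13.24 and 28.53 CPM in AD, highest in AD replicate 3, with a log2-fold change of 1.84 over 6 libraries (SE 0.30, FDR = 0.02016). Of 31 glutathione S-transferase genes tested, 2 rose and none fell (*GstD2* and *GstE4*, median 0.15), and of 18 antioxidant enzyme genes 1 rose, *Prx6b* (median 0.07). Over 6 libraries 4 P450 genes, *GstD2* alone of the transferases and no antioxidant gene rose. *GstE4* was below every WT library in AD replicate 3 (1.089 CPM against 2.942 to 5.146) and also lost its call without AD replicate 1 (FDR = 0.06892), AD replicate 2 (FDR = 0.06778) or WT replicate 3 (0.93). *Prx6b* measured 1.858, 0.5847 and 0.7006 CPM in WT and 9.171, 5.546 and 0 CPM in AD, while its neighbour *CG12896*, of the same span of 1036 bases, measured 10.58, 10.45 and 7.846 CPM in WT and 0.6816, 3.535 and 14.91 CPM in AD. The pair moved in opposite directions in each AD library, and whether reads were divided between them was not tested.

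The neprilysin family, whose founding members are proteases that degrade Aβ in mammals, had no rise past the fold limit without AD replicate 3, and *Nepl14* alone passed over 6 libraries. Of all 9885 genes tested without AD replicate 3, 5116 were above 0 and 697 were higher at the FDR alone. Of the 26 family members tested together with the insulin degrading enzyme gene, 20 were above 0 and 10 were higher at the FDR alone, with a median log2-fold change of 0.34. In AD replicate 3 the median difference from WT was 0.51, above the 0.28 and 0.33 of AD replicates 1 and 2. *Nep7* measured 21.94, 15.06 and 24.45 CPM in WT and 40.65, 33.83 and 35.95 CPM in AD, and reached 0.86 (FDR = 0.008438).

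Some genes of the antenna split the AD libraries to both sides of WT. *Obp83a*, an odorant-binding protein gene (3R:5972155-5975245), measured 16.8, 14.98 and 17.02 CPM in WT, 42.07 and 46.17 CPM in AD replicates 1 and 2, and 3.268 CPM in AD replicate 3. *Obp28a* measured 11.43, 8.989 and 10.23 CPM in WT, 27.88 and 31.82 CPM in AD replicates 1 and 2, and 3.404 CPM in AD replicate 3. Both genes were thus above WT in 2 AD libraries and below it in the third. Without AD replicate 3 the log2-fold changes were 1.44 (SE 0.11, FDR = 4.71e-05) and 1.54 (SE 0.14, FDR = 0.0001028), and over 6 libraries neither passed (FDR = 0.5159 and 0.3849).

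*Orco*, the coreceptor of the odorant receptors, and *Obp19a* were picked out after their values were seen. *Orco* measured 4.86, 4.312 and 6.095 CPM in WT and 19.7, 13.79 and 2.179 CPM in AD, and *Obp19a* 3.573, 3.143 and 3.083 CPM in WT and 11.53, 7.556 and 0.3404 CPM in AD. *Obp19a* missed the FDR once AD replicate 1 was left out too (FDR = 0.06012). Of 33 odorant-binding protein genes tested without AD replicate 3, 20 were above 0 and 13 below, and 5 rose and 1 fell. Over all 9885 genes tested 119 rose and 60 fell. The odorant-binding gene that fell, *Obp99d*, measured 4.288, 2.996 and 3.293 CPM in WT and 1.053, 0.5546 and 4.289 CPM in AD. Over 6 libraries no odorant-binding gene rose or fell. The median difference of these genes from the WT mean was 0.09, 0.29 and -0.43 in AD replicates 1, 2 and 3. Of 35 odorant, gustatory and ionotropic receptor genes tested, 1 rose (*Gr63a*, a carbon dioxide receptor subunit, at an FDR of 0.03423 that became 0.1367 without AD replicate 1, 0.162 without AD replicate 2, 0.06075 without WT replicate 1 and 0.05394 without WT replicate 3), and the median in AD replicate 3 was -0.23. In a fit of all 24 libraries *Obp83a* differed between genotypes by -1.66 at day 3, 0.52 at day 10 and 2.14 at day 20. No test is given for the single days. Averaged over these ages in the fit of the earlier libraries, the difference was 0.34 and did not pass (FDR = 0.877).

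Muscle genes went both ways, with more contractile genes below 0 than above. *Mp20*, a muscle protein gene picked out after its values were seen, measured 315.2, 364.1 and 394.3 CPM in WT and 891.2, 961.8 and 465 CPM in AD and rose in both fits (log2-fold change 1.37 without AD replicate 3, FDR = 2.553e-05). *Act87E*, a muscle actin gene, measured 134.3, 143 and 156.9 CPM in WT and 302.3, 317.2 and 148.3 CPM in AD and rose only without AD replicate 3 (1.10, FDR = 4.135e-05). Of 24 contractile genes tested, 15 were below 0, with a median log2-fold change of -0.21 without AD replicate 3. At the FDR alone 7 were lower and 2 higher, beside 898 lower and 697 higher of all 9885 tested. The giant kinase gene *bt* was at -0.62 (FDR = 0.003571). The summed level of 6 muscle markers was 3194 to 4096 CPM in WT and 3253, 3593 and 3918 CPM in AD.

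Genes of neuronal signalling were among the falls. *Sh* (X:17924307-18063247) measured 819.3, 1078 and 1064 CPM in WT and 365.1, 349.2 and 507.4 CPM in AD, and *para* (X:16455027-16533096) measured 435.5, 572 and 519.1 CPM in WT and 210.3, 216.4 and 284.2 CPM in AD. Every AD library, replicate 3 included, was below every WT library in both genes. The log2-fold change was -1.47 for *Sh* (SE 0.12, FDR = 5.686e-05) and -1.26 for *para* (SE 0.11, FDR = 8.506e-05) without AD replicate 3, and -1.28 (FDR = 0.01544) and -1.10 (FDR = 0.01602) with it. *SK*, a calcium-activated potassium channel gene, fell without AD replicate 3, from 164, 190.7 and 195.4 CPM in WT to 87.25 and 88.66 CPM in AD, and it measured 119.2 CPM in AD replicate 3. Over all 9885 genes tested without AD replicate 3, 60 fell and 898 were lower at the FDR alone. Of 22 voltage-gated ion channel genes tested, 4 fell (*Sh*, *para*, *SK* and the potassium channel gene *eag*) and none rose without AD replicate 3, 16 were lower at the FDR alone, and the median was -0.47. Over 6 libraries 2 of them fell, *Sh* and *para*. *eag* went under the fold limit without WT replicate 2 (-0.99) or AD replicate 2 (-0.98).

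Receptors and synaptic genes showed the same sign with smaller sizes. *Rdl*, a GABA receptor subunit, measured 465.5, 659 and 612.3 CPM in WT and 255.5, 264.8 and 344.8 CPM in AD and fell by 1.16 on the log2 scale without AD replicate 3 (FDR = 0.0003367). *nAChRalpha6*, a nicotinic acetylcholine receptor subunit, measured 358.1, 509 and 450.8 CPM in WT and 202.2, 209.3 and 271 CPM in AD and fell by 1.10 (FDR = 0.0004224), but by 0.98 and under the fold limit once WT replicate 2 was also left out. Both receptors were lower in each AD library than in any WT library. Of 10 nicotinic receptor subunits 9 were below 0, 7 at the FDR alone, beside 4756 and 898 of all 9885 genes tested without AD replicate 3. The median of the 10 subunits was -0.49, and -0.47 in AD replicate 3.

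All 22 synaptic vesicle release genes tested were below 0 without AD replicate 3, where 4756 of all 9885 tested genes were. At the FDR alone 14 of the 22 were lower (median -0.38), beside 898 of all tested genes. None of the 22 reached the fold limit. *Rim*, an active zone scaffold, measured 305.9, 326.3 and 325.8 CPM in WT and 183.1, 180 and 221.7 CPM in AD, *Syt1*, the calcium sensor of vesicle fusion, 554.6, 500.6 and 492.4 CPM in WT and 294, 267.9 and 422.2 CPM in AD, and *VAChT*, the vesicular acetylcholine transporter, 231.8, 243.2 and 254.8 CPM in WT and 142.3, 142 and 181.2 CPM in AD. Their log2-fold changes were -0.82, -0.88 and -0.78. The activity-regulated gene *Arc2* went the other way, from 19.51, 20.32 and 19.55 CPM in WT to 37.67, 36.18 and 33.97 CPM in AD, at 0.90 (FDR = 0.0003568). The memory list as a whole had a median of -0.44 with 11 of 18 genes lower at the FDR alone, and 32 neuropeptide precursor genes had a median of -0.15, with *Dsk*, a cholecystokinin-like peptide, at -0.82 (FDR = 0.0001788).

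Other falls were in genes of synapse structure, RNA binding and transcription. *sif*, which encodes a synaptic protein, measured 746.3, 782.6 and 751.5 CPM in WT and 341.5, 328.4 and 584.3 CPM in AD. *Rbp6*, a Musashi-type RNA-binding protein, measured 536.4, 589.7 and 573.5 CPM in WT and 237.4, 244.3 and 382.5 CPM in AD. AD replicate 3 lay between the groups in both, and the log2-fold changes without it were -1.18 (FDR = 1.481e-05) and -1.24 (FDR = 1.481e-05). The RNA-binding protein gene *bru3*, the TRIM-NHL gene *mei-P26*, the homeobox gene *pros* and the Alk ligand gene *jeb* fell with log2-fold changes of -1.225, -1.249, -1.149 and -1.35, each with every AD library below every WT library. *sif* shares 17139 exonic bases on the same strand with *CG46320*, so reads of those exons cannot be given to one gene.

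**Figure D3:**
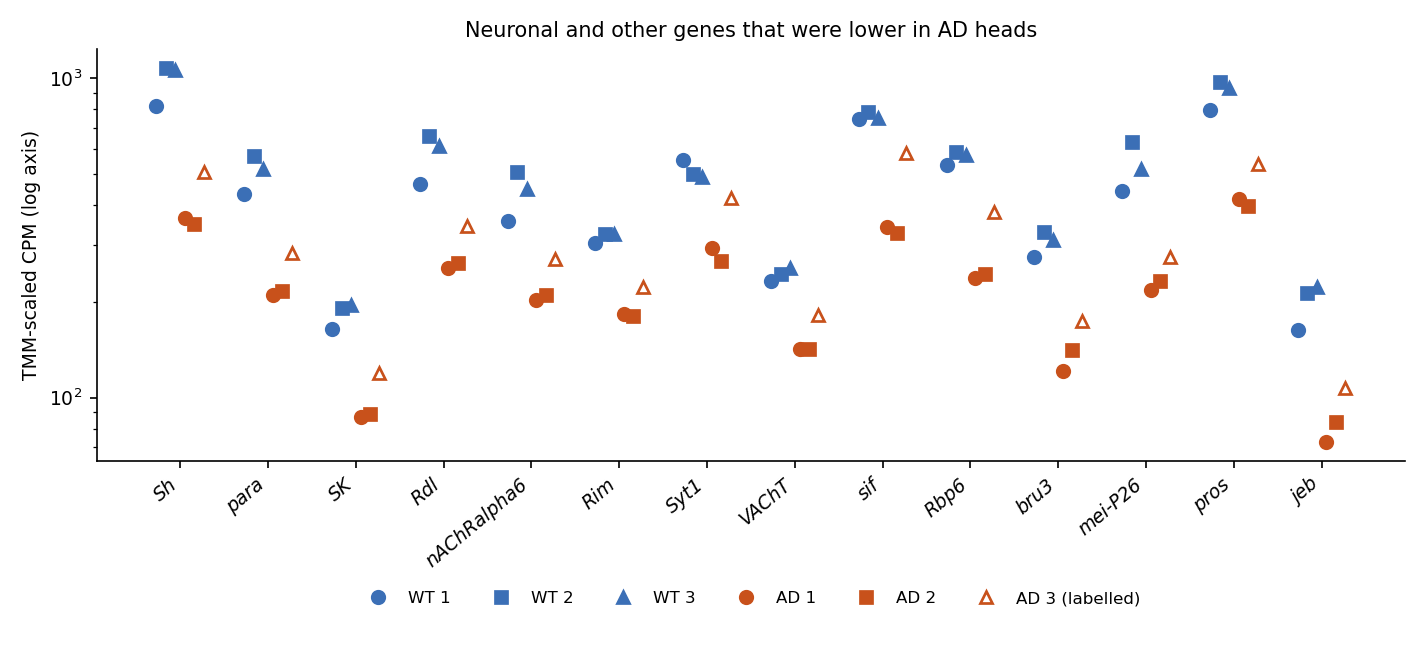
TMM-scaled CPM (log axis) of 14 neuronal and other genes, drawn because they were lower in AD heads. The 6 day 30 libraries are shown with WT in blue, AD in orange and AD replicate 3 open. For every gene drawn the 3 AD libraries lie below the 3 WT libraries, as for *Sh* (349.2 to 507.4 CPM against 819.3 to 1078).

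Among orthologs of genes linked to amyloid processing and tau, 3 of 11 tested were lower at the FDR alone, beside 898 of all 9885 tested genes. None of the 11 passed the fold limit. *Appl*, the fly APP ortholog, measured 694.5, 739.4 and 688.7 CPM in WT and 395.1, 359.4 and 587.9 CPM in AD, a log2-fold change of -0.91 (SE 0.08, FDR = 8.506e-05). *sgg*, the fly GSK-3, measured 420.2, 374.6 and 385.2 CPM in WT and 221, 242.4 and 327.4 CPM in AD (-0.77, FDR = 0.0003068), and *tau* 185.6, 193.2 and 179.1 CPM in WT and 145.1, 136.1 and 162.9 CPM in AD (-0.41, FDR = 0.005569). All AD libraries were below all WT libraries in the 3 genes, with AD replicate 3 nearest to WT.

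The difference between AD and WT heads varied with gene span, the distance from first to last annotated base. The median log2-fold change without AD replicate 3 was 0.08 over 3390 genes of up to 2 kb, 0.07 over 3183 genes of 2 to 5 kb, -0.08 over 2284 genes of 5 to 20 kb, -0.27 over 678 genes of 20 to 50 kb and -0.39 over 296 genes above 50 kb. Of the longest genes 273 (92.2%) were below 0, 13 (4.39%) fell and none rose. For them the median difference from the WT mean was -0.38 in AD replicate 1, -0.36 in AD replicate 2 and -0.12 in AD replicate 3, against -0.03 to 0.03 in the WT libraries. Transcript length went with span: among genes above 20 kb, the median was -0.33 for 852 genes with transcripts above 3 kb and -0.17 for 122 genes with shorter transcripts.

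The neuronal lists and gene span overlapped. Over the 125 tested genes of 6 neuronal lists the median was -0.36 without AD replicate 3 and -0.31 with it, and 99 were below 0. It was -0.19 for 79 of these genes up to 20 kb, -0.59 for 28 genes of 20 to 50 kb and -0.71 for 18 longer genes, against 0.04, -0.26 and -0.38 for genes of the same spans outside the lists. At each span the neuronal genes were thus lower than the others, and genes outside the lists were also lower when long. The summed level of 5 neuron markers was 2206 to 2350 CPM in WT and 1595, 1539 and 1964 CPM in AD, with none of the 5 at 0 and none past the fold limit, and the part of neuron content in these values was not tested.

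The same genes also separated libraries of one genotype at the earlier ages. Gene models that the authors had added themselves had other lengths in replicate 1 of days 3, 10 and 20 than in the other 18 libraries, which include all 6 of day 30, and those 6 tables are treated here as a separate processing run, run 1. Within genotype and age, the run 1 libraries were lower than the others by a median of 0.69 on the log2 scale in the genes that fell at day 30 (44 of 59 lower), and by 1.10 in the 25 of those that span over 20 kb (23 of 25 lower), against 0.01 over all tested genes. *Sh* measured 457.8, 512 and 347.9 CPM in the WT run 1 libraries of days 3, 10 and 20 on a scale over 24 libraries, where the other WT libraries of those ages measured 854.6 to 1803 CPM and the 3 AD libraries of day 30 measured 347, 331.6 and 488.7 CPM. *bru3* and *mei-P26* differed between runs by -1.54 and -1.63, *para* by -1.04 and *sgg* by -0.12. The short genes *CG13428* and *CheA75a* differed between runs by -1.975 and -1.316. The genes above 50 kb as a class differed by -0.23 between runs.

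Some of the chaperone genes that rose were also higher in run 1. Of 19 endoplasmic reticulum stress genes 14 were higher in run 1 and 5 lower, with a median run difference of 0.24. The run difference of *CaBP1* was -0.14. At day 3 *Hsc70-3* in AD heads was lowest in the run 1 library, at 371 CPM against 426.3 and 501.5 CPM. *Hsc70-3* was at 1477 CPM in WT day 20 replicate 1 and at 236.8 and 257.7 CPM in replicates 2 and 3, and the run difference was 0.99 for *Hsc70-3*, 0.66 for *Gp93*, 1.51 for *Hsp26* and 0.26 for the median of 114 genes that rose at day 30. It was -0.07 for *w*, 0.11 for *Cyp6a2* and -0.40 for *Ldh*. These differences lay between libraries of the same genotype and age, and their part in the day 30 difference was not tested.

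Ribosomal protein genes were slightly higher in AD heads. Of 82 cytosolic ribosomal protein genes tested, 81 were above 0 and 31 were higher at the FDR alone without AD replicate 3, with a median of 0.22 and none past the fold limit. *RpS3A* measured 1007, 1048 and 1055 CPM in WT and 1393, 1394 and 1135 CPM in AD, at 0.43 (FDR = 0.00266). Their run difference had the other sign, at -0.22. Mitochondrial ribosomal protein genes (73 tested) and nuclear oxidative phosphorylation genes (70 tested) had medians of -0.02 and -0.12 with no call.

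Antimicrobial peptide genes were highest in AD replicate 3. Over 14 antimicrobial peptide genes the median difference from WT was -0.05, 0.62 and 1.12 in AD replicates 1, 2 and 3, and 3 rose over 6 libraries. Without AD replicate 3 none rose and 1 fell, *AttD*, an attacin gene, which measured 60.03, 88.36 and 46.24 CPM in WT and 21.69, 41.94 and 130.1 CPM in AD (-1.03, FDR = 0.03535) and lost the call without WT replicate 2 (FDR = 0.09911) or AD replicate 1 (FDR = 0.1822). *CecA2*, a cecropin gene that rose over 6 libraries, measured 36.81, 42.24 and 37.13 CPM in WT and 76.9, 75.28 and 89.86 CPM in AD. The stress-induced gene *TotA* measured 693.7, 380.3 and 724.4 CPM in WT, 187.9 and 275.3 CPM in AD replicates 1 and 2 and 1009 CPM in AD replicate 3, so it was below WT in 2 AD libraries and above it in the third. It fell without AD replicate 3 by 1.37 on the log2 scale (FDR = 0.004518) and gave -0.29 with it (FDR = 0.8336). The summed level of 6 fat body markers was 1866 to 2314 CPM in WT and 1963, 2569 and 3135 CPM in AD. In AD replicate 3 most of that sum was *apolpp* (2909 CPM). The sum of 5 gut markers was 157.6 to 221.1 CPM in WT and 217.1, 214.3 and 393.6 CPM in AD. In AD replicate 3 nearly all of it was 1 gene, *Amy-p* (391.4 CPM). Of the other gut markers, *Mal-A1* was lower there (2.247 CPM against 5.003 to 9.063 CPM in WT), and *Jon65Aiv*, *alphaTry* and *betaTry* had no count.

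Carbohydrate and lipid genes were mostly higher. All 9 amylase and maltase genes tested were above 0 without AD replicate 3 (median 0.45), but the median difference from WT was 0.79, 0.31 and 0.06 in AD replicates 1, 2 and 3. The only rise was *tobi*, at 1.003, which was lost without WT replicate 1 (0.97), WT replicate 3 (0.86) or AD replicate 2 (FDR = 0.07296) and lay below every WT library in AD replicate 3 (5.31 CPM against 5.885 to 9.355). The maltase gene *Mal-B2* measured 367.9, 298.6 and 381.2 CPM in WT and 671.3, 554.1 and 707.7 CPM in AD. Of 22 lipid storage and lipoprotein genes 18 were above 0, 2 rose (*mag* and the lipase gene *CG5966*) and 7 were higher at the FDR alone (median 0.20). *CG5966* measured 69.47, 51.74 and 39.86 CPM in WT and 203.7, 61.97 and 112.3 CPM in AD, so the groups overlapped, and it went from 1.31 to 0.20 (FDR = 0.6853) without AD replicate 1 and missed the FDR without WT replicate 2 (FDR = 0.1082) or WT replicate 3 (FDR = 0.09299). Of 16 glycolytic enzyme genes 2 rose, *Ldh* and *Hex-C*, and the median was 0.06. Over all 9885 genes tested without AD replicate 3, 119 rose and 697 were higher at the FDR alone.

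Photoreceptor genes held 1 call without AD replicate 3. All 9885 tested genes held 119 rises and 60 falls, and 898 were lower at the FDR alone. Over 33 photoreceptor and phototransduction genes the median was -0.05 without AD replicate 3, 5 were lower at the FDR alone, 1 rose (*ninaD*, a carotenoid receptor gene, from 0.07147, 0.8039 and 1.261 CPM in WT to 5.763 and 3.466 CPM in AD, with 0.2723 CPM in AD replicate 3, and an FDR of 0.01788 that became 0.14 without AD replicate 1), and *rdgB*, a phosphatidylinositol transfer protein of photoreceptors, measured 179, 164.3 and 154.7 CPM in WT and 94.87, 95.73 and 132.4 CPM in AD (-0.80, FDR = 0.0002269). The summed level of 5 photoreceptor markers was 47110 to 51470 CPM in WT and 41360, 44390 and 41740 CPM in AD. Glial genes had a median of 0.01 with no call, and the clock gene *Pdp1* reached -0.95 (FDR = 8.397e-05). Of the 47 gene lists, 26 held no call without AD replicate 3, 10 had a median above 0.2 and 7 a median below -0.2.

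The rises without AD replicate 3 were spread over the autosomes and fewer on the X chromosome. Of 1616 X-linked genes tested 10 (0.619%) rose, against 1.28% to 1.38% on the 4 large autosome arms, and 15 (0.928%) fell, against 0.4% to 0.638%. The difference between chromosomes was not tested.

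A separate fit covered the earlier ages, and its counts are not comparable with those of day 30, since the libraries and their spread differ. Averaged over days 3, 10 and 20 with the run as a term, 26 of 10346 tested genes were higher in AD heads (0.251%) and 8 were lower (0.0773%). Of these 26, 22 (84.6%) also rose at day 30 without AD replicate 3, where they were 18.5% of the 119 rises. With the 6 libraries as labelled, 10 of the 26 (38.5%) rose, 26.3% of the 38 rises. *w* and *Cyp6a2* are among the 22, and the library left out had been set aside for its low level of both. The larger share is thus partly fixed by that choice. Of the 26 genes, *Ldh*, *LysS*, *Hsc70-3* and *Gp93* rose in both fits. Of the 8, 1 (12.5%) also fell at day 30 (1.67% of the 60 falls), *Obp99d*, an odorant-binding protein gene, whose FDR at day 30 was 0.01129 and became 0.07491 without AD replicate 2.

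The genes that rose and those that fell at day 30 had different histories. Over the 114 rises tested at the earlier ages, the median difference was 0.02 at day 3, 0.73 at day 10 and 1.31 at day 20, and 103 were above 0 on average. Over the 59 falls it was -0.13, -0.14 and -0.01. The small heat shock protein genes gave -0.03, 0.23 and 0.80 at the earlier ages, the endoplasmic reticulum stress genes 0.08, 0.16 and 0.34, the voltage-gated channel genes -0.03, -0.06 and -0.04, and the genes above 50 kb -0.04, -0.10 and -0.05. *Sh* was 0.01, -0.06 and 0.00 at days 3, 10 and 20, and *CG14961* 0.01, 0.44 and 1.75.

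**Figure D4:**
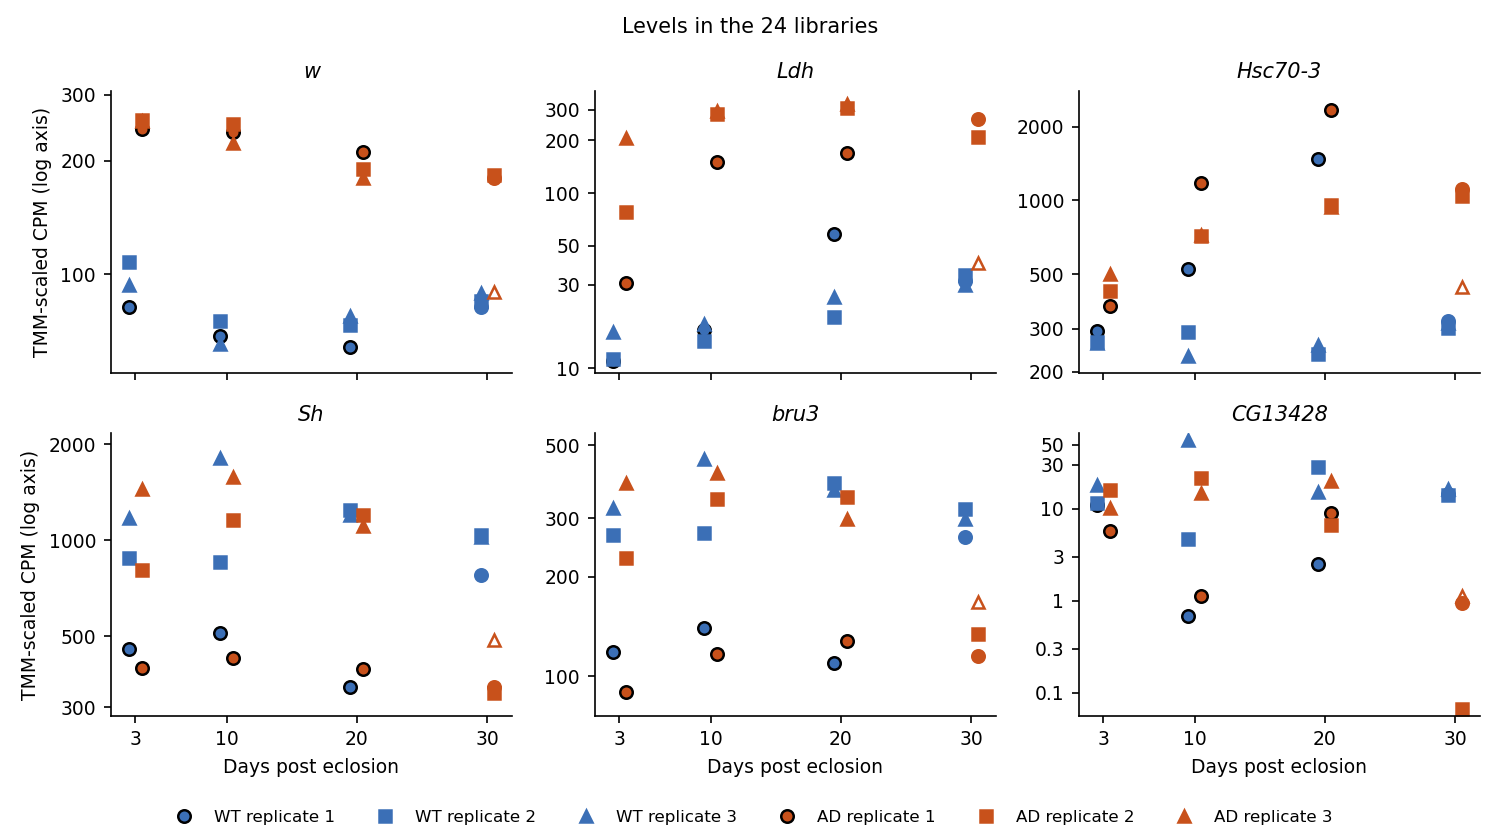
TMM-scaled CPM over all 24 libraries (log axis) of 6 genes against days post eclosion, WT in blue, AD in orange, with run 1 libraries outlined in black and AD day 30 replicate 3 open. *w* and *Ldh* separate the genotypes at every age except in that library (40.13 CPM for *Ldh*), whereas *Sh* is low in run 1 libraries of both genotypes (347.9 to 512 CPM in WT) and in AD at day 30.

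A test of whether the day 30 difference departed from the mean difference at the earlier ages found 0 of 10479 genes over 24 libraries (0% at an FDR under 0.05), with 776 at an unadjusted p under 0.05 in edgeR, whereas DESeq2 found 80 under that FDR (10 higher, 70 lower). Without AD replicate 3 it found 2 of 11183 genes (0.0179%), with 943 at an unadjusted p under 0.05. *Hr3*, a nuclear receptor gene of the ecdysone response (2R:10203995-10237348), measured 77.26, 76.74 and 74.33 CPM in WT and 36, 31.19 and 56.37 CPM in AD at day 30, and its departure was -1.16 (SE 0.18, FDR = 0.03561). *sgg* (X:2633952-2679553) departed by -0.77 (SE 0.12, FDR = 0.03561). *Hr3* shares 6466 exonic bases with *CG12912* on the same strand and was lower in run 1 by 0.58, and the fall of neither gene was present at the earlier ages (-0.03 and -0.01). For the other genes, passing at day 30 and not before does not show that the ages differed.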

How the data were processed

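Poly(A) RNA of pooled male heads was sequenced as paired ends. The authors trimmed the reads, aligned them to release 6 of the fly genome with HISAT2 2.0.4 and, after Bowtie2 alignment to transcripts, estimated expected counts with RSEM; the deposited tables hold an expected count and an FPKM per gene, and FPKM served only in alternatives. Whether counting used strand is not given in the sources used here, and 51 of the 161 named genes in the annotation share exonic bases with another gene. Genes were matched to the release 6 annotation by identifier (13550 of 13700) or by the symbol in the tables (150); genes added by the authors were left out of tests.

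Expected counts were rounded and tested with edgeR 4.0.16 in R 4.3.3 (quasi-likelihood test, TMM scaling, filterByExpr, Benjamini-Hochberg adjustment over all genes tested). Two-sided tests compared 3 AD with 3 WT libraries, and 2 with 3 without AD replicate 3. The earlier ages were fitted with genotype by age and the processing run, read from the lengths given for genes the authors added. DESeq2 1.42.0 and limma 3.58.1 on log2(FPKM + pseudocount) were alternatives, and the scripts were tested on simulated data.

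Named genes were *w*, *Cyp6a2* and *LysS*, the 10 per direction with the smallest p among calls whose AD and WT libraries did not overlap, in each fit, and up to 3 per list. The members and the 47 lists were chosen with earlier results of these data known. Same-numbered AD and WT libraries did not deviate together (correlations -0.10, 0.11 and -0.15), so the numbers were not taken as pairs. The chi-square per gene between replicates was 9.52 to 50.93, so no library was a repeat. Some genes are not reported here.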

Additional observations from a re-analysis of the deposited data

Results flagged for a closer look

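The difference between AD and WT heads at day 30 departed from that at days 3, 10 and 20 in 2 genes once the library labelled AD day 30 replicate 3 was left out, by a test of the difference itself in edgeR. *Hr3* departed by -1.16 on the log2 scale and *sgg* by -0.77. With that library kept, the departures were -0.86 (FDR = 0.2296) and -0.57 (FDR = 0.2296), so neither was called.

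Gene models added by the authors themselves, which no comparison used, took 1.09% of the expected counts on average in the 3 AD libraries of day 30 and 0.936% in the 3 WT libraries.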

How the results depend on the processing

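Over 6 libraries 53 genes passed the FDR and fold limits. All 24 libraries as 8 groups gave 2 and the second run alone as 8 groups gave 35, against 14 and 105 for the fit without AD replicate 3, where 179 passed. Leaving out the fold limit gave 434 and 1595 genes. limma on log2(FPKM + 1) gave 21 genes over 6 libraries and on log2(FPKM + 0.1) 29. DESeq2 gave 58 and 183 genes, and 67 and 220 passed without a filter on low counts. The replicate block gave 44 genes (30 higher, 14 lower) over 6 libraries and 177 (113 higher, 64 lower) without AD replicate 3. Over 6 libraries it took the call from *CG11089*, *CheB38b*, *Gart*, *Hsp68*, *Ldh* and *Mp20*, with *Cyp6a2* left aside. With 1 library left out, the count ranged from 0 (without WT replicate 2) to 179 (without AD replicate 3) over 6 libraries. At the earlier ages 34 genes passed with the run as a term and 17 without it. The test of departure gave 0 genes in edgeR, 80 in DESeq2 and 2 without AD replicate 3. The causes of these shifts were not tested.

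Of the named genes, *Obp19a* turned to -0.003 over 6 libraries with limma on log2(FPKM + 0.1). With 1 library left out, *CG16826* ranged from -6.84 to 0.53, *whe* from -8.13 to 0.16, *TotA* from -1.37 to 0.11 and *AttD* from -1.03 to 0.41, each lowest without AD replicate 3. No other gene described here reversed under the alternatives run. Leaving out the odorant-binding and muscle genes, chosen after seeing the data, left 174 calls.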

Other observations

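3 genes that were near 0 in some heads and well expressed in others followed no group and were picked out after their values were seen. *CG16826* measured 28.92, 38.58 and 0 CPM in the 3 WT libraries and 0.1178, 0.2633 and 62.16 CPM in the 3 AD libraries of day 30, on a scale over 24 libraries. *whe* measured 13.07, 20.24 and 0 CPM in the same WT libraries and 0, 0.06582 and 21.83 CPM in the same AD libraries, and *lcs* measured 21.51, 29.55 and 1.147 CPM and 1.767, 1.711 and 25.77 CPM. The 3 genes were high in the same day 30 libraries. At the earlier ages *CG16826* was at 88.62 CPM in WT day 3 replicate 3, 91.18 CPM in WT day 10 replicate 1 and 68.87 CPM in AD day 10 replicate 1, and at 0 in WT day 3 replicate 2, so high and near-zero libraries occurred in both genotypes. All 3 counted among the 60 falls without AD replicate 3, although WT replicate 3 was as low as AD replicates 1 and 2.

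The sum of 5 testis markers was low in every library, at 1.215 to 1.681 CPM in WT and 3.594, 6.031 and 2.383 CPM in AD, and that of 5 ovary markers was at most 2.485 CPM in WT and 0.6239 CPM in AD.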
